A study of Mus musculus with 27 samples.

Results

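The ATAC regions open at all times are stretches of chromatin that were called accessible to Tn5 transposase in NMuMG cells before treatment (0 h), after 8 h and after 24 h of TGF-β. They were selected on their ATAC peak calls alone, by merging the peaks of the 3 ATAC-seq lists wherever these touched or overlapped, and keeping each merged region that a peak of all 3 lists overlapped by at least 1 bp. This rule kept 6413 of 34453 merged regions (18.6%). NMuMG is a mouse mammary epithelial line in which TGF-β, added here at 1 to 5 ng/ml, induces an epithelial-to-mesenchymal transition (EMT). ATAC-seq and lamin B1 ChIP-seq, the latter from a fraction enriched in euchromatin, had 1 library per time. RNA-seq had 2 biological replicates per time in the parental cells (6 libraries), in cells infected with a control shRNA (shCT, 6 libraries) and in cells infected with an shRNA against lamin B1 (shLB, 6 libraries). Infected cells had been selected with puromycin, and shCT and shLB libraries came from untreated cells and from cells given TGF-β for 8 or 24 h. No fold or test can be given for ATAC or lamin B1 signal, because these assays have no replicates and their read depth is unknown.

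Tn5 inserts sequencing adapters where DNA is free of nucleosomes, so that an ATAC peak marks a promoter, an enhancer or another regulatory element. Promoters of mammalian housekeeping genes usually lie in CpG islands and carry short sites for SP/KLF, NF-Y, ETS, NRF1, YY1 and CRE-binding factors. Open elements far from promoters in epithelial cells often carry sites for AP-1, the Fos and Jun dimers, and for TEAD, RUNX and forkhead (FOX) factors. Lamin B1 is best known as a component of the lamina under the nuclear membrane, where it lies next to closed chromatin, but a pool of it contacts euchromatin.

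Both kinds of element occur among the 6413 regions, and a few sequences show the short sites that the results below count. Each sequence has 81 bases, is given 5′ to 3′ on the strand named, comes from mouse build mm9 (NCBIM37) and has the searched motif in capitals. The regions were taken from those with the highest scores at their weakest time, among windows outside annotated exons and without repeated sequence. The next 4 lie far from any annotated transcription start site (TSS) and show the AP-1 motif TGANTCA. The distance is that of the motif from the nearest TSS.

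Fam73a intron, 31.7 kb, chr3:151971640-151971720, + strand: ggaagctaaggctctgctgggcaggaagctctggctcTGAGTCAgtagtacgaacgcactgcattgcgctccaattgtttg

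Rorb intron, 111 kb, chr19:18964898-18964978, + strand: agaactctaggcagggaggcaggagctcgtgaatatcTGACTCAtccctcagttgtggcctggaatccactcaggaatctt

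Between genes, 17.6 kb from Krt18, chr15:101876178-101876258, + strand: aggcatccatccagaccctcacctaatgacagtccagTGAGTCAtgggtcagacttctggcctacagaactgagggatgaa

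Intron, 109 kb from H2afy3, chr15:62160142-62160222, + strand: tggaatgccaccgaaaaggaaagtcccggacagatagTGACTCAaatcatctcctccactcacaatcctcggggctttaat

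Promoters are shown by 3 windows with the NF-Y motif GCCAAT and 3 with the ETS motif CCGGAAG, because matches of both were most frequent in the 100 bp upstream of the TSS. The windows printed are examples of the motif and not of that position.

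Mon1b promoter, NF-Y, chr8:116159311-116159391, + strand: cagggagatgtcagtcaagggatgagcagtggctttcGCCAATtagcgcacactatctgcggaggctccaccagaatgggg

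Ppp2r1a promoter, NF-Y, chr17:21082621-21082701, + strand: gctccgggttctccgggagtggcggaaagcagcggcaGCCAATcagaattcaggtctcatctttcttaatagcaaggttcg

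Hnrnpa1 and Cbx5 promoter, NF-Y, chr15:103070599-103070679, + strand: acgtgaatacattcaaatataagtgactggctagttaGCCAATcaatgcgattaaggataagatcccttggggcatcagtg

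Ccdc130 promoter, ETS, chr8:86794428-86794508, + strand: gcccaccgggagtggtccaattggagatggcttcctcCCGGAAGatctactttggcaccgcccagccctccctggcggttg

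B3gntl1 promoter, ETS, chr11:121534685-121534765, − strand: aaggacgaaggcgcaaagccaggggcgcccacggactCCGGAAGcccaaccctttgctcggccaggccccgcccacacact

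Usp5 and Cdca3 promoter, ETS, chr6:124779080-124779160, − strand: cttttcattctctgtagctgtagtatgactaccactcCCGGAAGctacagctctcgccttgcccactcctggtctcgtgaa

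The last window carries the core of the CTCF motif and lies between genes, 33.8 kb upstream of the nearest Foxk1 TSS. It is shown because the CTCF motif was rare and because a lamin B1 peak covered this region at all 3 times.

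Upstream of Foxk1, CTCF, chr5:142843650-142843730, − strand: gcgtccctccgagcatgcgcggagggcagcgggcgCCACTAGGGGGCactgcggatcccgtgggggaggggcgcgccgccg

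The ATAC list of untreated cells held 9782 peaks, that of 8 h 10340 and that of 24 h 33811. Regions open at all times held 6441, 6461 and 6420 of these peaks, which were 65.8%, 62.5% and 19.0% of the lists. Most of the strongest accessible sites of each list were among them, with 963, 936 and 912 of the 1000 highest scoring peaks. Of the other merged regions, 2920 lacked a peak at 8 h only, 3586 had one at 8 h and 24 h, 20880 were seen at 24 h only and 654 had none at 24 h. The 24 h list was by far the longest, which bears on every class that rests on a peak at 24 h.

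The score of a peak is the deposited MACS score, in which a higher value stands for stronger enrichment and the lowest value listed was 50. These scores, together with presence in the lists, chose the regions and are given as a description. The median score of a region was 109.51 before TGF-β (quartiles 77.56 and 152.9), 82.89 after 8 h (66.08 and 106.24) and 398.67 after 24 h (297.25 and 510.26). The score was highest at 24 h in 6331 of the 6413 regions (98.7%) and lowest at 8 h in 4690 (73.1%). Scores of different libraries were not put on a common scale and depth is unknown, so a change of accessibility and a difference between libraries cannot be told apart. Across the 6413 regions, Spearman's rho between scores was 0.43 for untreated against 8 h, 0.45 for untreated against 24 h and 0.55 for 8 h against 24 h, a description over regions that share libraries.

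**Figure D1:**
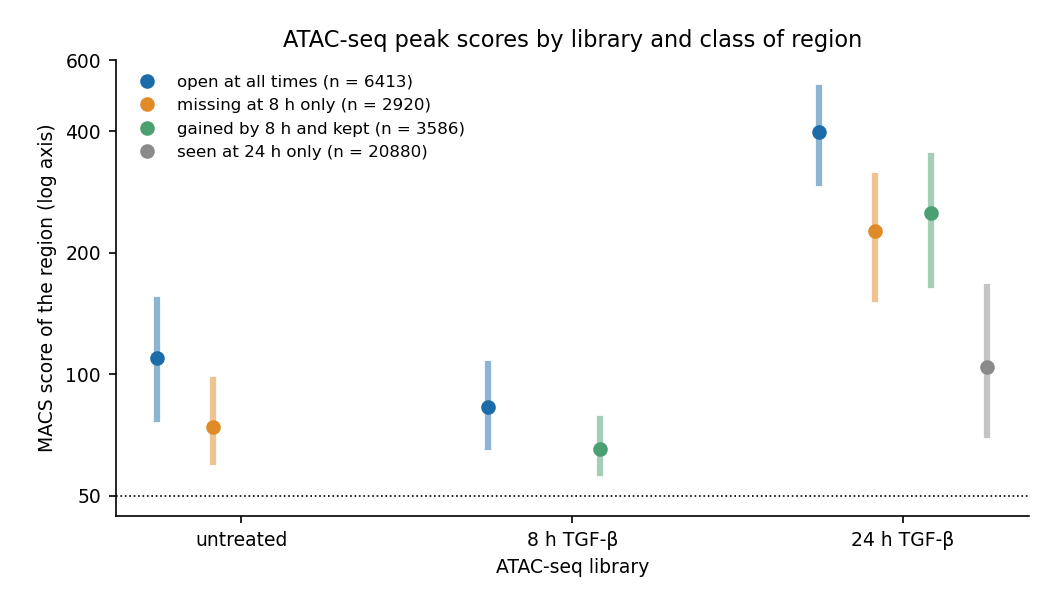
Deposited MACS score of the regions in the ATAC library of untreated cells and of cells after 8 and 24 h of TGF-β, on a log axis, with the median (point) and quartiles (bar) of each class and the lowest listed score of 50 dotted. Regions open at all times have medians of 109.51, 82.89 and 398.67, above those of regions missing at 8 h only, which are 74.1 and 226 at the times with a peak, and of regions gained by 8 h and kept, which are 65.1 and 250.

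A region open at all times usually rested on 1 peak in each list (6339 of 6413). Its median width was 1631 bp (quartiles 1368 and 2005 bp, from 370 to 6402 bp), against 879 bp for regions seen at 24 h only. The stretch covered by all 3 peaks at once had a median of 751 bp, or 46.7% of the region. Only 26 regions had no base in common to the 3 lists. The peak was widest at 24 h in 5988 regions and narrowest at 8 h in 4572. The widest regions after that at AY036118 lay at the promoters of Ptch1 (6189 bp), the Hedgehog receptor, Plec (5810 bp), which encodes the cytoskeletal linker plectin, Trim8 (5724 bp), which encodes a ubiquitin ligase, and Tgif1 (5632 bp), which encodes a repressor of TGF-β-responsive genes.

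How strongly a region was called varied. At its weakest time the median score was 76.2, and 1534 regions scored at least 100 at every time. The lowest score was under 60 in 1384 regions (21.6%), close to the limit of 50. Just inside the rule stood a region 29.6 kb from 2010107E04Rik, with scores of 115.69, 50.01 and 223.81 at 0, 8 and 24 h, and the promoter of Tex14, with 84.33, 50.02 and 74.2. Just outside stood promoters with high scores at the other two times but no peak at 8 h. Ccnt2, which encodes a cyclin of the elongation factor P-TEFb, had 278.9 and 569.56. Socs3, an inhibitor of cytokine signalling, had 231.2 and 353.87, and Mrps36 had 226.38 and 563.96.

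Several of the highest scores belonged to sequence that occurs more than once in the genome. Gm10800 on chromosome 2 scored 2616, 1863 and 1929 at 0, 8 and 24 h, and 66.0% of the 31-base words in its central 500 bp were found more than once. Gm10222 on chromosome 1 scored 1660, 1539 and 2300, and all of its words were shared with the mitochondrial chromosome. Of the 10 regions with the highest score at their weakest time, 4 consisted mostly of such words and 8 held some. Over the 6413 regions the share was small, with 29 (0.452%) mostly repeated and 5408 (84.3%) free of any repeated 31-base word. Reads from copies of a repeated sequence cannot be told apart. AY036118 on chromosome 17, the widest region at 6402 bp, scored 2075, 1180 and 1804. Its central 500 bp held no repeated 31-base word, but words from the rest of the region were not counted. Copies missing from the genome build could not be counted either, so whether this sequence is single-copy is not known.

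Among promoters without repeated words in their central 500 bp, that of Sp1 scored highest at its weakest time after AY036118, with 500, 430 and 948 (chr15:102235119-102238355). Sp1 encodes the founding member of the SP/KLF family, whose motif was the most frequent at promoters open at all times. The following were named after their values were seen, leaving out regions with repeated words. The shared promoter of Irak4, a kinase of innate immune signalling, and Pus7l scored 311, 260 and 849. Mon1b, which encodes a regulator of endosome maturation, scored 334, 243 and 900, and Osbp, which encodes an oxysterol-binding protein, scored 257, 235 and 830. Away from promoters the highest at their weakest time were the Fam73a intron (234, 206 and 469) and the Rorb intron (206, 241 and 771). An element 63.6 kb from D630008O14Rik (218, 205 and 661), in which no searched motif was found, came next. After it came the element 17.6 kb from Krt18 (194, 194 and 669), which encodes an epithelial keratin. The 8 h score was above the untreated score in the Rorb intron and barely so near Krt18 (194.13 against 193.51). In the Fam73a intron and near D630008O14Rik the 8 h score was the lower. These scores come from single libraries that were not put on a common scale.

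Regions open at all times were mainly promoters. Of the 6413, 4549 overlapped the 500 bp to either side of an annotated TSS, or 70.9% (95% interval 69.8 to 72.0%, Wilson's method, as for all shares below, and covering counting error only). A further 138 (2.15%) lay 500 to 2500 bp from a TSS, 143 (2.23%) touched an exon, 614 (9.57%) an intron and 969 (15.1%) lay between genes. The regions in exons, introns and between genes are called distal here and number 1726. The share at a TSS was 22.3% in all other merged regions and 16.6% in regions seen at 24 h only, a difference of 54.3 percentage points from the latter (53.1 to 55.5, Newcombe's method). Regions missing at 8 h only were the nearest, with 64.7%, which was 6.24 points lower (4.19 to 8.31). Because the regions open at all times are the wider ones, the position of the central base was compared as well. It lay within 500 bp of a TSS in 67.0% of them and in 14.7% of regions seen at 24 h only.

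The promoter regions were centred on the start site. The median position of the centre was 6 bp from the TSS, with quartiles at −72 and 110 bp, where positive values lie inside the gene. Starts on opposite strands were common. Among the 4549 promoter regions, 24.0% covered divergent starts, against 10.8% of the promoter regions seen at 24 h only, a difference of 13.2 points (11.6 to 14.8). Promoter regions missing at 8 h only had 18.3%. Divergent here means starts of different genes on both strands within 500 bp of the region, whatever their order. A wider region can reach more starts, and this share was not adjusted for width. On the autosomes and the X chromosome, the number of regions ranged from 4.66 per Mb on chromosome 19 and 3.69 per Mb on chromosome 15 to 0.648 per Mb on X. As a share of all merged ATAC regions of a chromosome, they ranged less widely. This share was 24.5% on chromosome 19, 12.1% on X and lowest on chromosome 14 with 11.5%, against 18.6% of all merged regions.

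**Figure D2:**
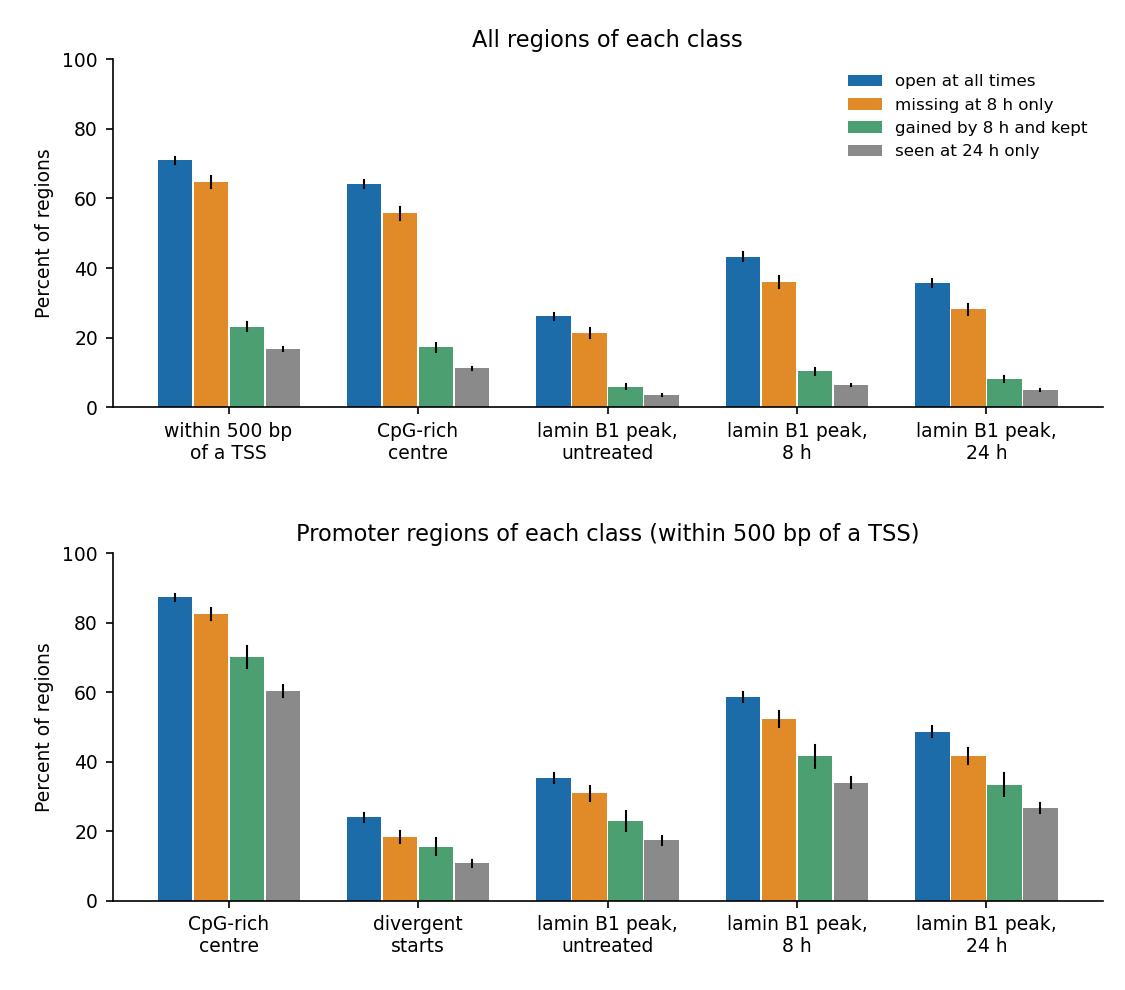
Percent of all regions (top) and of promoter regions (bottom) in 4 classes of merged ATAC region that lie at a TSS, are CpG-rich, cover divergent starts or overlap a lamin B1 peak at each time, with 95% Wilson intervals as black lines. Among the 4 classes plotted, regions open at all times have the highest share on each measure, with 70.9% at a TSS, 64.3% CpG-rich and 26.1, 43.3 and 35.7% with a lamin B1 peak at 0, 8 and 24 h, and promoters alone keep that order with 87.4% CpG-rich and 58.5% with a lamin B1 peak at 8 h.

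Regions open at all times were richer in GC and CpG than regions seen at 24 h only, and close to regions missing at 8 h only. In the central 500 bp, GC content was 60.6 ± 10.8% (SD, n = 6413 regions). A window was called CpG-rich where GC was at least 50% and the ratio of observed to expected CpG at least 0.6, which held in 64.3% of regions open at all times and 11.1% of regions seen at 24 h only (difference 53.1 points, 51.9 to 54.4). Regions missing at 8 h only had 58.7 ± 11.2% GC and a CpG-rich share of 55.8% (difference 8.51 points, 6.36 to 10.7). Among promoter regions alone the CpG-rich share was 87.4%, against 60.4% of those seen at 24 h only and 82.6% of those missing at 8 h only. Promoter GC content was 65.4 ± 8.08%, against 60.1 ± 9.93% and 64.3 ± 8.51%. Distal regions open at all times had 48.8 ± 7.41% GC, against 45.6 ± 5.70% for those seen at 24 h only.

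Lamin B1 peaks lay on many of these open promoters. The deposited lamin B1 lists held 4645, 10484 and 7083 peaks at 0, 8 and 24 h, and 36.8%, 27.5% and 33.3% of them overlapped a region open at all times. Seen from the ATAC side, 1673, 2775 and 2288 of the 6413 regions carried a lamin B1 peak, or 26.1%, 43.3% and 35.7%. The corresponding shares of regions seen at 24 h only were 3.40%, 6.36% and 4.85%. The share at 8 h exceeded that of untreated cells, as the number of lamin B1 peaks did, and with 1 library of unknown depth per time a change of lamin B1 cannot be told apart from a longer list.

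The regions fell into those with a lamin B1 peak at some time, 3304 (51.5%), and those with none, 3109 (48.5%). A peak at all 3 times was found on 1145 regions (17.9%), at 8 h and 24 h but not before on 765, at 8 h only on 600, and in untreated cells only on 151. In regions seen at 24 h only the share with a peak at any time was 8.12%, a difference of 43.4 points (42.1 to 44.7). When only the central base counted, which takes out width, the shares of regions open at all times were 23.1%, 38.5% and 30.4%.

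Lamin B1 overlap was found mainly at the promoters among them. Of the 4549 promoter regions, 35.4%, 58.5% and 48.7% carried a peak at 0, 8 and 24 h, and 69.4% at some time. Distal regions open at all times carried one in 3.13%, 5.50% and 3.36%. Promoter regions seen at 24 h only had 17.4%, 33.9% and 26.6%, so that the difference at 8 h was 24.6 points (22.4 to 26.7). Promoter regions missing at 8 h only had 30.9%, 52.4% and 41.6%, and the difference at 8 h was 6.13 points (3.47 to 8.80). Distal regions seen at 24 h only had 0.492%, 0.710% and 0.423%, lower than distal regions open at all times. Distal regions missing at 8 h only had 3.34%, 5.18% and 3.02%, close to them.

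The stronger the weakest ATAC score, the larger was the share with a lamin B1 peak. From the lowest to the highest quartile group of that score it ran from 22.8% to 32.4% in untreated cells, from 34.9% to 54.9% at 8 h and from 28.4% to 45.2% at 24 h. Among promoters alone the range at 8 h was 54.0% to 64.8%, and in untreated cells 35.8% to 38.3%, with the middle quartile groups at 33.7% and 33.8%. The intervals of the lowest and the highest quartile group of promoters overlapped in untreated cells (33.0 to 38.6% and 35.5 to 41.1%) and not at 8 h (51.0 to 56.8% and 62.0 to 67.5%).

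The central 500 bp were searched on both strands for 14 motifs. A match is a description of letters and not of a bound factor. Overlapping matches of different motifs were both counted. At the 4549 promoter regions the SP/KLF motif GGGCGG was found in 83.8%, against 62.8% of promoter regions seen at 24 h only (difference 21.0 points, 19.1 to 22.9) and 52.6% of all protein-coding gene starts. NF-Y GCCAAT was found in 27.2%, against 15.2% (12 points, 10.2 to 13.7) and 20.7%. ETS CCGGAAG was found in 23.7%, against 17.6% (6.08 points, 4.30 to 7.83) and 14.4%. These 3 motifs were thus more frequent at promoters open at all times than at those seen at 24 h only or at protein-coding gene starts. Mean GC content also differed, with 65.4%, 60.1% and 56.7% in these 3 sets of windows. The motif shares were not adjusted for it.

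Less frequent promoter motifs ran the same way against the regions seen at 24 h only. YY1 AAGATGGCG was in 5.25% against 3.88%, NRF1 GCGCATGCG in 4.51% against 2.65%, and CRE TGACGTCA in 3.96% against 2.79%. The protein-coding gene starts had 2.88%, 2.40% and 2.60%. The AP-1 motif was rarer at promoters open at all times, 7.41% against 18.2% (−10.8 points, −12.3 to −9.35), and so was TEAD CATTCC, 15.2% against 21.8%. Set against promoters missing at 8 h only, NF-Y (18.4% there) and SP/KLF (77.6%) still differed, by 8.85 points (6.63 to 11) and 6.17 points (4.04 to 8.37). For ETS the difference was −0.645 points with an interval of −2.97 to 1.62, which includes 0.

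Distal regions open at all times carried AP-1 sites at a high rate. TGANTCA was present in 1115 of 1726, or 64.6% (62.3 to 66.8%), against 15.3% of windows 2 kb to either side of them. Distal regions seen at 24 h only had 68.2%, which was 3.61 points higher (1.28 to 6.01). Those gained by 8 h and kept had 73.7%, those missing at 8 h only 55.4% (52.2 to 58.6%) and those absent at 24 h 39.0%. TEAD was in 31%, against 24.8% of the flanking windows and 33.4% of distal regions seen at 24 h only. RUNX TGTGGTT was in 19.8%, against 11.5% of the flanks and 20.3% of regions seen at 24 h only. The AP-1 share was thus slightly below that of the distal regions seen only at 24 h, and for RUNX the interval of the difference (−2.44 to 1.52 points) includes 0.

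Of the 14 motifs, 4 were more frequent in distal regions open at all times than in those seen at 24 h only, with intervals of the difference above 0. The forkhead motif TGTTTAC was in 12.3% against 8.55% (3.79 points, 2.25 to 5.48), with 7.94% in the flanks. SP/KLF was in 16.9% against 7.70% (9.16 points, 7.41 to 11), ETS in 3.88% against 2.28% (1.60 points, 0.754 to 2.65) and NRF1 in 0.348% against 0.0685% (0.279 points, 0.0833 to 0.689). None of the 4 set these regions apart from distal regions missing at 8 h only, which had 12.7% for FOX, 17.2% for SP/KLF, 4.42% for ETS and 0.755% for NRF1, with every interval of the difference including 0. FOX was also in 11.7% of distal regions gained by 8 h and kept and in 13% of those absent at 24 h, again with intervals that include 0. The motif of CTCF, the insulator protein, was in 12 of the 1726 (0.695%) against 1.43%. The grainyhead-like motif AACNNGTT was in 6.78% against 7.41%, the E-box CACCTG of Snail and Zeb factors in 26.7% against 25.2%, and the Smad palindrome GTCTAGAC in 0.753% against 1.08%, and all 3 intervals of the difference include 0. Inside the distal regions open at all times, TEAD was in 31.4% of those with an AP-1 motif and 30.3% of those without, FOX in 13.6% and 9.98%, and RUNX in 21.1% and 17.5%. These differences were not tested. The AP-1 share was 67.6%, 64.5%, 66.1% and 60.2% from the lowest to the highest quartile group of the weakest score.

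The motifs differed in where their matches were most frequent. In promoters open at all times NF-Y matches were most frequent 100 to 50 bp upstream of the TSS, with 10.7 matches per 100 regions per 50 bp, 7.14 times the 1.5 found beyond 500 bp. At promoters seen at 24 h only the same bin held 4.46, or 3.18 times the outer level. ETS matches peaked in the 50 bp upstream of the TSS at 6.59, which was 12.6 times the outer level, and at 7.22 (18.2 times) in promoters seen at 24 h only. Both distributions were broad, since 22.6% of the NF-Y and 33.0% of the ETS matches within 1000 bp of the TSS of promoters open at all times lay within 100 bp of it. AP-1 matches in distal regions peaked beside the centre at 13.8, against 1.97 beyond 500 bp. The AP-1 peak was sharper in the narrower regions seen at 24 h only, where 37.1% of matches within 1000 bp lay within 100 bp of the centre, against 28.9%.

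**Figure D3:**
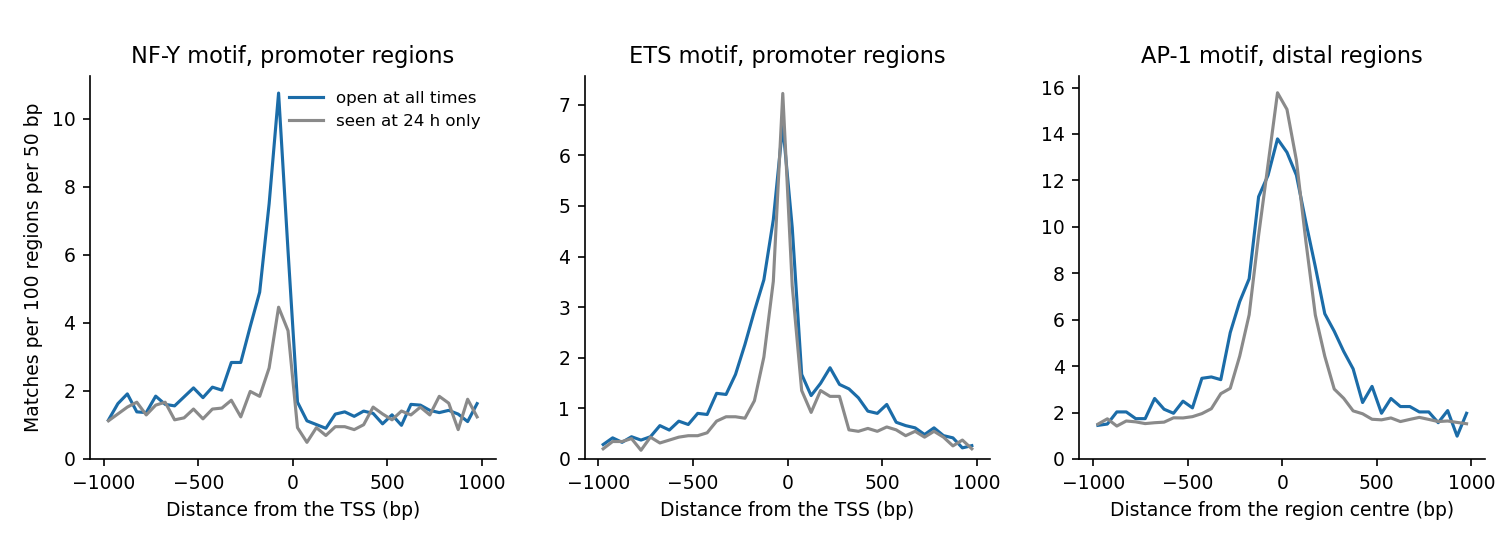
Matches per 100 regions in 50 bp bins for NF-Y and ETS around the TSS of promoter regions and for AP-1 around the centre of distal regions, for regions open at all times and regions seen at 24 h only. NF-Y reaches 10.7 in the bin from −100 to −50 bp in regions open at all times and 4.46 in the others, ETS reaches 6.59 and 7.22 just upstream of the TSS, and AP-1 reaches 13.8 and 15.8 next to the centre.

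The distal regions lay a median of 25 kb from the nearest TSS (quartiles 10.9 and 56.3 kb), and 27.6% were over 50 kb away. Where the nearest gene had an RNA value in untreated cells, its median level was 5.51 FPKM (RNA fragments per length of transcript and per size of the library), against 2.99 FPKM for the nearest genes of distal regions seen at 24 h only. The regions with such a value had 996 different nearest genes, of which 338 also had a promoter open at all times. The nearest gene is a matter of distance and need not be the one a distal element acts on.

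RNA-seq gave an independent measure of the genes at these promoters. Of 21981 annotated genes matched to the RNA tables, 5184 had a promoter region open at all times, and 5171 of them were in the parental table. Their median level was 14.4 FPKM in untreated cells (quartiles 5.78 and 33.2), 13.9 at 8 h and 14.0 at 24 h. Genes with a promoter seen at 24 h only had 7.77, 7.42 and 8.01 FPKM, and the median of genes without any ATAC region at a promoter was 0 before TGF-β. Promoters missing at 8 h only were at the same level as those open at all times, with 14.5, 14.3 and 14.1 FPKM. The median over the 5171 genes varied little between the 6 libraries, which gave 14.3 and 14.4, 13.8 and 13.9, and 14.1 and 14.0 FPKM at the 3 times.

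**Figure D4:**
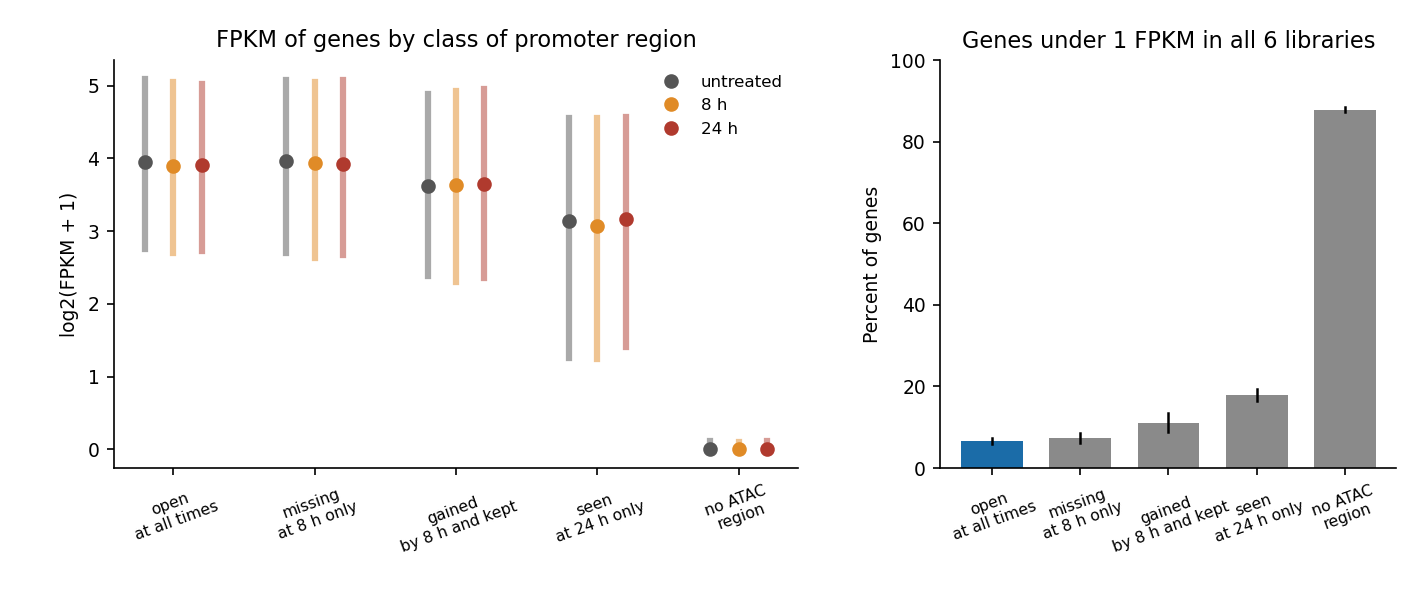
Level of RNA per gene in parental cells as log2(FPKM + 1) at each time by class of promoter region, with medians (points) and quartiles (bars), and the percent of genes under 1 FPKM in all 6 libraries with 95% Wilson intervals. Genes with a promoter open at all times have medians of 14.4, 13.9 and 14.0 FPKM, close to those missing at 8 h only and above the 7.77, 7.42 and 8.01 FPKM of genes with a promoter seen at 24 h only, and 6.58% of them stay under 1 FPKM, against 17.8% and 87.8% for promoters seen at 24 h only and genes without a region.

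Genes with a lamin B1 peak on their promoter at a given time had higher levels at that time than those without. The median was 16.5 FPKM with a peak and 13.2 without before TGF-β, 15.6 and 11.5 after 8 h, and 15.7 and 12.2 after 24 h. Before TGF-β the median was 14.6 FPKM for CpG-rich promoters and 12.3 FPKM for the others. From the lowest to the highest quartile group of the ATAC score in untreated cells the median went from 12.6 to 16.8 FPKM. For scores and RNA at 8 h the medians of the 4 groups were 12.7, 14.1, 13.5 and 15 FPKM, and for those at 24 h 14.2, 14.0, 14.2 and 13.9 FPKM.

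An open promoter did not always come with RNA. Levels stayed under 1 FPKM in all 6 parental libraries for 340 of the 5171 genes, or 6.58% (5.93 to 7.28%), against 17.8% for promoters seen at 24 h only and 87.8% for genes without a region. Another gene started in the same region for 253 of the 340, and 87 stood alone. The silent genes with the highest scores included 4932412D23Rik, which was listed at 0 in all 6 libraries with scores of 277, 229 and 1260 and shared its region with another gene. Styxl1, with scores of 250, 184 and 386, also shared its region and reached at most 0.0399 FPKM. 1700030J22Rik was alone at its region, scored 183, 178 and 432 and lay between 0.373 and 0.763 FPKM.

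The 5 genes with the highest RNA levels were S100a6, Rplp1, Rps12, Ppia and Lgals1. S100a6, a calcium-binding protein abundant in epithelia, had 12492 and 11501 FPKM in untreated cells, 10306 and 9891 at 8 h and 4305 and 5181 at 24 h. It fell by 1.34 ± 0.10 (SE) on the log2 scale at 24 h (adjusted p = 2.62e-05, limma). The ribosomal protein genes Rplp1 and Rps12, the prolyl isomerase gene Ppia and the galectin gene Lgals1 lay between 2054 and 4151 FPKM in every parental library. The S100a6 region scored 52.0, 58.6 and 190, each below the lower quartile of the set at that time.

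Genes with a promoter open at all times rose or fell in RNA during TGF-β treatment about as often as all genes tested. Changes were tested with limma on log2(FPKM + 1) for genes at 1 FPKM or more in at least 2 libraries, with Benjamini-Hochberg adjustment over all genes tested and a threshold of 0.05. A gene can pass this filter through the group in which it is high. Of the 5171 genes, 4806 passed it. At 8 h, 1040 of them rose (21.6%), against 22.4% of all 11309 genes tested, and 1566 fell (32.6%), against 32.1%. At 24 h, 1500 rose (31.2%), against 33.4%, and 1859 fell (38.7%), against 37.1%. The median log2 change of the 4806 genes was −0.05 at 8 h and −0.03 at 24 h, against −0.05 and −0.02 over all genes tested.

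Large changes were less common than over all genes. A change of 2-fold or more in either direction that passed the test was found for 104 of the 4806 genes at 8 h (2.16%, against 4.3% of all genes tested) and for 372 at 24 h (7.74%, against 11.8%). Genes with a promoter missing at 8 h only were close, with 2.47% and 8.66%, so the low share was not particular to promoters open at all times. Genes with a promoter seen at 24 h only had 5.81% and 14.4%, and tested genes without an ATAC region at a promoter had 11.5% and 27%. Both comparisons share the untreated libraries.

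Among the genes that rose most at 8 h, Gpr123, an adhesion receptor gene, had 0.992 and 1.09 FPKM in untreated cells, 23.0 and 15.8 at 8 h and 26.7 and 24.5 at 24 h. The groups did not overlap with the untreated one, and the log2 change was 3.30 at 8 h and 3.70 at 24 h (adjusted p = 2.94e-05 and 1.99e-06, limma). Gadd45a, a stress-response gene, went from 4.94 and 4.34 to 34.3 and 21.8 and then to 42.2 and 40.2 FPKM. Its log2 changes were 2.33 and 2.91.

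Other genes that rose most were Pdgfa, which encodes a platelet-derived growth factor chain, with 17 and 17.5, 82.4 and 69.2, and 82.4 and 78.6 FPKM, and Spsb1, with 3.39 and 3.18, 17.9 and 16, and 25.4 and 25.5 FPKM. Both rose by 2.07 on the log2 scale at 8 h (adjusted p = 1.86e-05 and 1.18e-05, limma). At 24 h the secreted chaperone gene Clu rose by 3.27, from 313 and 324 to 3181 and 2974 FPKM, and Adarb1, which encodes an RNA-editing adenosine deaminase, by 2.83, from 1.24 and 1.33 to 15.5 and 15 FPKM. The regions of Gadd45a and Pdgfa were shared with a start of another gene.

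Among the genes that fell most, Itgb7, an integrin subunit gene, had 48.1 and 46.6 FPKM in untreated cells, 12.8 and 16 at 8 h and 1.08 and 0.981 at 24 h, with log2 changes of −1.66 ± 0.10 and −4.57 ± 0.10 (adjusted p = 4.18e-05 and 3.07e-07, limma). Its region scored 156, 72.6 and 252. Sptssb, which encodes a subunit of serine palmitoyltransferase, went from 17.2 and 17.8 to 1.06 and 2.41 and then to 0.215 and 0.149 FPKM, and fell by 2.80 and 3.97 on the log2 scale. Cebpa, which encodes a transcription factor of differentiated epithelia, went from 12.5 and 12.1 to 1.77 and 2.62 and then to 1.33 and 1.5 FPKM, with log2 changes of −2.07 and −2.46.

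Adh7, an alcohol dehydrogenase gene, fell by 2.32 on the log2 scale at 8 h, from 34.6 and 34.0 to 4.89 and 7.49 FPKM (adjusted p = 6.89e-05, limma). At 24 h Sh2d4a fell by 2.88, from 27.3 and 28.2 to 2.67 and 3.13 FPKM, and Habp2, a hyaluronan-binding protease gene, by 2.67, from 39.7 and 41.4 to 5.49 and 5.60 FPKM. Snord104, a small nucleolar RNA, was listed at 1888 and 1807 FPKM in untreated cells, at 0 in both libraries at 8 h and at 0 and 1569 at 24 h. The pair of values at 24 h disagree entirely, and its call at 8 h (adjusted p = 0.0163) was lost when either untreated library was left out, so no fold is given.

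Gene lists of the study's theme were compared with this set of promoters. Over all 21732 matched genes of the parental table, 23.8% had a promoter open at all times. That base includes 10557 genes (48.6%) under 1 FPKM in all 6 libraries. Of the 11028 matched genes that were tested, 4806 had such a promoter. The share of genes tested that rose and fell was 22.4% and 32.1% at 8 h and 33.4% and 37.1% at 24 h, and each list below is to be read against these. Of 26 listed genes of the TGF-β pathway, 15 had a promoter open at all times (57.7%). Of these, 12 rose and 3 fell at 8 h, and 11 rose and 1 fell at 24 h, with a median log2 change of 0.60 and 0.61 (over all genes tested −0.05 and −0.02). Among the receptors, Acvr1 had 19.2 and 19.8, 58.3 and 52.7, and 56.2 and 52.9 FPKM, and rose by 1.46 and 1.44 on the log2 scale (adjusted p = 2.14e-05 and 1.96e-06, limma). Bmpr2 rose by 0.80 and 0.91. Tgfbr1 rose by 0.79 at 8 h and stood at −0.01 at 24 h (adjusted p = 0.914), while Tgfbr2 fell by 0.26 at 8 h and rose by 0.51 at 24 h.

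The members of the list that are known to restrain the pathway are given next, a grouping made after their values were seen. Pmepa1, which sequesters Smads, had 39.0 and 38.6, 125 and 117, and 127 and 123 FPKM, with log2 changes of 1.61 and 1.66 (adjusted p = 1.08e-05 and 6.18e-07, limma). The Smad corepressor genes Ski and Skil rose by 1.16 and 1.11 at 8 h and by 1.07 and 1.15 at 24 h. The inhibitory Smad7 rose by 0.95 and 0.97, and the ubiquitin ligase genes Smurf1 and Smurf2 by 0.51 and 0.49 at 8 h and by 0.43 and 0.61 at 24 h. The signalling Smads changed less, with Smad3 at 0.35 and 0.26, Smad4 at 0.17 at 8 h and Smad2 at −0.14 at 8 h, all past the threshold. Id1, a BMP target and inhibitor of differentiation, went from 257 and 220 to 107 and 110 and then to 39.3 and 40.7 FPKM, and fell by 1.13 and 2.54 (adjusted p = 4.97e-05 and 6.18e-07).

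**Figure D5:**
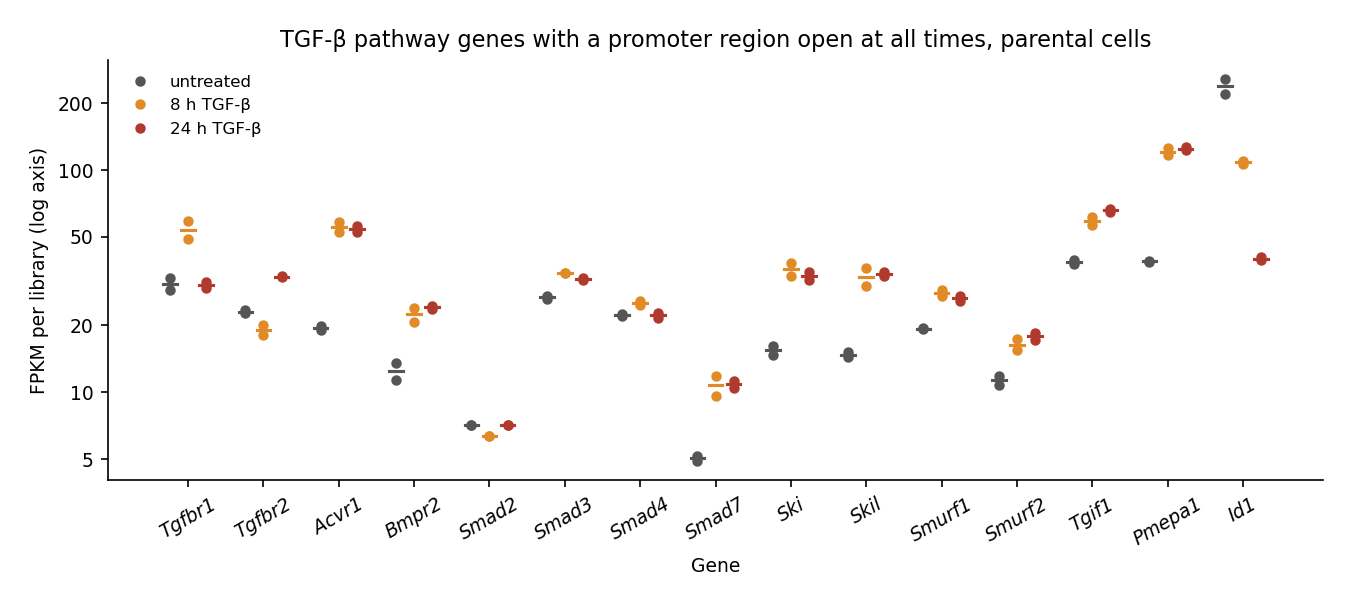
Level of RNA in each of the 6 parental libraries, in FPKM on a log axis, for the TGF-β pathway genes whose promoter region was open at all times, with a point for each library and a dash for the mean of each time. Acvr1, Pmepa1, Ski, Skil and Smad7 lie higher at 8 and 24 h than in untreated cells with no overlap, and Id1 lies lower, at 39.3 and 40.7 FPKM at 24 h.

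EMT markers were in the set about as often as all matched genes, expressed or not. The set held 7 of 31 epithelial and mesenchymal genes (22.6%, against 23.8% of all matched genes). Of the 16 epithelial genes 3 were in it, of which 1 rose and 1 fell at 8 h and 2 fell at 24 h. The keratin gene Krt8 rose by 0.35 at 8 h (adjusted p = 0.000818, limma), the junction gene Tjp1 fell by 0.51 at 24 h and the epithelial transcription factor gene Elf3 fell by 0.50 and 0.91. Among the mesenchymal genes, the N-cadherin gene Cdh2, the collagen gene Col1a1 and the vimentin gene Vim were in the set, and these 3 rose at 8 h. Col1a1 went from 2.37 and 2.12 to 8.57 and 8.11 FPKM at 24 h, and Cdh2 from 35.0 and 35.2 to 67.6 and 71.8. Vim rose by 0.31 at 8 h and fell by 0.21 at 24 h. The promoter of Cdh1, the E-cadherin gene, carried no ATAC region in any list, although its RNA was at 113 and 119 FPKM in untreated cells and 39.4 and 41.1 at 24 h.

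Of 12 AP-1 and immediate early genes 8 had a promoter open at all times (66.7%) and 7 were tested, of which 4 rose and 2 fell at 8 h and 3 rose and 3 fell at 24 h. Jun rose by 1.12 and 1.49 on the log2 scale, from 7.61 and 8.12 to 18.9 and 17.5 and then to 24.1 and 23.8 FPKM (adjusted p = 3.32e-05 and 1.27e-06, limma). Fosl2 rose by 1.11 and 1.90, and Atf3 by 0.78 and 1.07. Fosl1 fell by 0.33 and 1.16, and Egr1 by 0.70 and 0.97. Jund stood at 0.07 and 0.09 and did not pass the test, and Fosb stayed under 1 FPKM despite scores of 86.4, 75.2 and 293.

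Of 11 matched genes of the YAP and TEAD list, 4 were in the set (36.4%), and each rose at both times. They are Wwtr1, which encodes TAZ, and the YAP targets Cyr61, Ankrd1 and Amotl2. Cyr61 went from 29.4 and 28.0 to 64.2 and 59.5 and then to 101 and 91.7 FPKM, with log2 changes of 1.08 and 1.71 (adjusted p = 3.88e-05 and 1.25e-06, limma). At 24 h Ankrd1 rose by 1.29, Amotl2 by 1.17 and Wwtr1 by 0.40.

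Of 14 housekeeping genes 11 were in the set (78.6%), of which 3 rose and 5 fell at 8 h, and 2 rose and 8 fell at 24 h. B2m, the light chain of class I histocompatibility molecules, rose by 1.30 at 24 h and Pgk1, a glycolytic enzyme, fell by 0.95. Rplp0 stood at 0.00 at both times. Of 26 genes for RNA polymerase II and general transcription factors 12 were in the set (46.2%), with 4 that fell at 8 h and 8 at 24 h and none that rose. Of the 16 chromatin architecture and lamina genes 12 were in the set (75%), of which 4 rose and 5 fell at 8 h, and 1 rose and 9 fell at 24 h.

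Within the last list the lamin B receptor gene Lbr went from 29 and 29.1 to 15.2 and 16.5 and then to 10.5 and 9.21 FPKM, with log2 changes of −0.84 and −1.47 (adjusted p = 0.000118 and 2.99e-06, limma). The cohesin gene Rad21 fell by 0.82 at 24 h and Smc1a by 0.67. Sun2, a linker of the nuclear envelope, rose by 0.47 and 0.86. Lmna, the gene of lamins A and C, rose by 0.45 at 8 h and fell by 0.32 at 24 h. The scores of the Lbr promoter were 248, 114 and 593, with a lamin B1 peak at all 3 times.

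As a check of the cell type, none of 16 genes of other cell types had a promoter open at all times. The cardiac genes Actc1 and Myh6 were nevertheless at 65.6 to 82.1 FPKM and 28.4 to 36.3 FPKM in the parental libraries, with no ATAC region at their promoters. The gene symbols of these values could not be checked against reads. The epithelial keratin gene Krt8 was at 2024 FPKM or more in every parental library.

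The promoter of Lmnb1, the gene targeted by the shRNA, was itself open at all times, with scores of 64.6, 64.5 and 470 and no lamin B1 peak. In parental cells Lmnb1 had 36.9 and 36.3 FPKM before treatment, 34.1 and 34.4 at 8 h and 19.5 and 17.6 at 24 h. In shCT cells it had 29.2 and 36.5, 32.8 and 32.1, and 18.4 and 17.9 FPKM. In shLB cells it had 9.01 and 9.27, 7.79 and 8.14, and 4.37 and 7.52 FPKM, below every shCT library of the same time. The log2 change of shLB against shCT was −1.73 without TGF-β, −1.90 at 8 h and −1.5 at 24 h (adjusted p = 0.000573, 0.000189 and 0.000901, limma).

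Of the genes with a promoter open at all times, 4746 were tested in the shRNA libraries. In untreated cells 460 rose in shLB (9.69%, against 10.6% of all 11450 genes tested) and 453 fell (9.54%, against 9.09%). At 8 h 880 rose (18.5%, against 19.3%) and 845 fell (17.8%, against 16.5%). At 24 h 714 rose (15%, against 16.8%) and 644 fell (13.6%, against 11.5%). Large changes were few. A 2-fold change or more was called for 12 genes in untreated cells (0.253%, against 0.585%), 21 at 8 h (0.442%, against 0.803%) and 12 at 24 h (0.253%, against 0.533%). Genes with a promoter missing at 8 h only had 0.0579%, 0.174% and 0.232%. After quantile normalization the split at 24 h turned for the genes with a promoter open at all times. Then 575 rose and 799 fell, or 41.8% of the called genes rising in place of 52.6%. The numbers that rose and fell at each time moved by more than 1.5 times when single libraries were left out, to 125 rising and 106 falling in untreated cells without shLB replicate 1, to 492 and 454 at 8 h without shCT replicate 2, and to 282 and 203 at 24 h without shCT replicate 1. Without shLB replicate 1 at 24 h, 1040 genes fell.

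Whether lamin B1 lay on the promoter went with small differences in these shares. At 24 h, 12.4% of the genes with a lamin B1 peak at that time rose and 15.2% fell (n = 2323), against 17.6% and 12% of those without (n = 2415). In untreated cells 9.60% rose and 11.4% fell with a peak, against 9.77% and 8.52% without. At 8 h the shares were 19.0% and 18.0% with a peak and 18.0% and 17.5% without. These are counts of genes in the same libraries, and the difference between genes with and without a peak was not tested.

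The largest falls in shLB, apart from Lmnb1 and from Snord104, for which no fold is given, were those of Emp1, Tax1bp3 and Itgb7. Emp1, which encodes an epithelial membrane protein, had 238 and 325 FPKM in shCT against 107 and 114 in shLB before treatment, 122 and 141 against 40.6 and 41.7 at 8 h, and 39.1 and 37.7 against 10.6 and 12.9 at 24 h. Its log2 changes were −1.32, −1.65 and −1.63 (adjusted p = 0.000583, 0.00011 and 0.000181, limma). Tax1bp3, which shares its region with another gene, fell by 1.49, 1.46 and 1.26. Itgb7 had 28.0 and 40.8 FPKM in shCT and 8.58 and 9.37 in shLB before treatment, and fell by 1.80. Snord104 was listed at 1196 and 2146 FPKM in shCT and at 0 in both shLB libraries at 24 h.

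The largest rises in shLB included Sptssb, Lbp, Fas, Itga1, Herpud1 and Hnf4a. Hnf4a, a transcription factor of differentiated epithelia such as liver, had 5.65 and 5.79 FPKM in shCT and 20.7 and 24.4 in shLB at 24 h, a log2 change of 1.81 ± 0.09 (adjusted p = 1.76e-05, limma). Its promoter had low scores of 79.9, 53.7 and 87.0. Fas, the death receptor gene, rose by 0.96, 1.17 and 0.93, and Herpud1, a gene of the endoplasmic reticulum stress response, by 0.78, 1.18 and 1.06. Itga1, an integrin subunit gene, had 1.77 and 1.58 FPKM in shCT and 6.68 and 6.30 in shLB at 8 h, a log2 change of 1.49.

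Sptssb rose by 1.31 before treatment, from 7.79 and 5.47 FPKM in shCT to 19.0 and 16.5 in shLB (adjusted p = 0.000468, limma), and by 1.27 at 8 h. Lbp, which encodes the lipopolysaccharide-binding protein, rose by 1.74 at 8 h, from 5.75 and 5.55 to 20.6 and 21.7 FPKM (adjusted p = 0.00434). Its rises of 1.09 before treatment and 1.12 at 24 h (adjusted p = 0.0490 and 0.0342) were lost when single libraries were left out, and its shLB values at 24 h were 7.41 and 18.1 FPKM. Of the 15 TGF-β pathway genes with a promoter open at all times, 2 rose and 1 fell in shLB before treatment. At 8 h and at 24 h 4 rose and 2 fell. Over all genes tested 10.6% rose and 9.09% fell before treatment, 19.3% and 16.5% at 8 h, and 16.8% and 11.5% at 24 h. The median log2 change of the 15 was −0.00, 0.12 and −0.10. Among them Tgfbr2 rose at all 3 times, by 0.41, 0.47 and 0.56.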

How the data were processed

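ATAC-seq and lamin B1 ChIP-seq were deposited as 1 peak list per time (3 libraries each), and RNA-seq as a table of 6 parental and a table of 12 shRNA libraries. The peak lists hold the MACS score that the authors' peak caller gave, with no reads, so depth is unknown and no value could be set on a depth scale. The RNA tables hold FPKM per gene, calculated by the authors, also without counts. The submitters' processing notes name Bowtie, TopHat, Cufflinks and build mm9 without roles or versions, the control and the Tn5 shift used for ATAC are not given in the sources used here, and each lamin B1 library was a mix of parallel ChIPs. The FPKM tables have no header, and each column was given the group that the labels' description names at its place, so that the 2 parental libraries of a time are replicates without a number.

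Regions, positions and overlaps (at least 1 bp) were computed with Python 3.11.15, pandas 2.3.3 and scipy 1.17.1 against mm9 and GENCODE M1, and 95% intervals are Wilson's and, for differences, Newcombe's. GC content, CpG and motifs were read from the 500 bp around each region's centre. Gene symbols matched the annotation for 21732 of 23295 parental and 21408 of 24247 shRNA rows. RNA was tested with limma 3.58.1 in R 4.3.3 (lmFit, contrasts and eBayes with trend) on log2(FPKM + 1), with a minimum of 1 FPKM in 2 libraries, all libraries of a table in a single fit, and Benjamini-Hochberg adjustment over all genes tested with a threshold of 0.05. The fold on this scale understates the change of low genes. The test was tried on simulated data with known changes.

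The regions and the gene lists were chosen with earlier results of these data known. Named regions are the 5 with the highest score at their weakest time at promoters and away from them, the 5 widest, and 3 just inside and 3 just outside the rule. Named genes are the 5 with the highest FPKM, the 5 silent ones with the highest scores, the 5 largest rises and falls of each parental comparison and the 3 largest of each shRNA comparison, among called genes with groups that did not overlap and a higher group mean of at least 5 FPKM, together with the genes of the lists. A gene that this rule names is not reported here. Alternatives concerned the peaks used, windows, pseudocount, filter, normalization, libraries in the fit and pairing. Hi-C was not used here.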

Additional observations from a re-analysis of the deposited data

Results flagged for a closer look

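Among the named genes with a promoter open at all times, the effect of the lamin B1 shRNA differed between times for 5 genes, by limma's interaction term with Benjamini-Hochberg adjustment over all genes tested. Each had been named for a large change of shLB against shCT at 1 or more of the times. That choice favours a difference between times. Values are differences between log2 changes of shLB against shCT, so a positive value means a higher change at the later time. For Hnf4a the change at 24 h exceeded that of untreated cells by 1.35 (adjusted p = 0.00132) and that at 8 h by 0.97 (adjusted p = 0.0194). Its shLB values were above the shCT values at each time. For Itga1 the change at 8 h exceeded that of untreated cells by 0.99 (adjusted p = 0.0315). For Itgb7 the change at 8 h was higher than that of untreated cells by 1.41 (adjusted p = 0.0183) and that at 24 h by 1.66 (adjusted p = 0.00604). At 24 h Itgb7 was under 0.5 FPKM in all 4 shRNA libraries, with 0.428 and 0.244 FPKM in shCT and 0.226 and 0.183 in shLB.

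For Sptssb the change at 24 h was lower than that of untreated cells (−1.25, adjusted p = 0.0121) and lower than that at 8 h (−1.21, adjusted p = 0.0478, limma). Its highest value at 24 h was 0.125 FPKM, in shLB, and at such a level log2(FPKM + 1) leaves little room for a change. For Snord104 the differences were −9.09 from untreated cells (adjusted p = 0.000624) and −8.52 from 8 h (adjusted p = 0.00107), but both rest on 2 shLB libraries listed at 0 at 24 h, so that their size depends on the pseudocount and is no measure of the change. Over all genes with a promoter open at all times that were tested, the effect differed between 8 h and untreated cells for 159 of 4746 (3.35%, against 4.06% of all genes tested) and between 24 h and untreated cells for 181 (3.81%, against 4.72%). For 24 h against 8 h it did for 3 of them (0.0632%, against 0.306%).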

How the results depend on the processing

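Depth limits all that rests on the peak lists, since a region counts as open only where each of 3 lists of unknown depth and unequal length holds a peak, and the RNA tests rest on 2 libraries per group. No single log2 change reversed its sign under any alternative. Quantile normalization turned the split of rising and falling genes for shLB at 8 h (807 and 881) and at 24 h (575 and 799). Of 246 log2 changes of named genes under alternatives, 234 kept their direction and their side of the threshold and 12 no longer passed it. They were those of Lbp before treatment and at 24 h and of Snord104 at 8 h.

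With peaks at or above the median score of their own list only, 2880 regions were open at all times, 81.6% of them lay at a TSS, and 31.2%, 53.2% and 43.9% overlapped a lamin B1 peak at 0, 8 and 24 h. AP-1 was then in 61.5% and TEAD in 28.0% of distal regions, SP/KLF in 86.9% and NF-Y in 31.6% of promoters. Genes with such a promoter numbered 2723, with median levels of 15, 14.5 and 14.9 FPKM. With lists of equal length 75.4% lay at a TSS, lamin B1 shares were 28.1%, 46.3% and 38.9%, SP/KLF was in 85.1% of promoters and the median in untreated cells was 14.3 FPKM. With a TSS window of 2500 bp the share at a TSS was 73.1% and the medians were 13.9, 13.4 and 13.6 FPKM, and with the centre of the region 67.0%. Lamin B1 peaks at or above the median score gave 15.9%, 28.7% and 22.1%, and the central base, chosen after seeing the data, 23.1%, 38.5% and 30.4%. In a window of 300 bp, AP-1 was in 51.6%, TEAD in 21.5% and FOX in 7.94% of distal regions, and SP/KLF in 71.8%, NF-Y in 18.6% and ETS in 16.1% of promoters. Merging peaks up to 500 bp apart, requiring a base in all 3 lists and, added after seeing the data, leaving out repeated regions or using the outermost TSS only moved none of these values beyond its interval or, for counts, beyond 1.5 times.

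Counts of genes that rose and fell changed most with a 2-fold minimum, to 54 and 50 at 8 h, 136 and 236 at 24 h, and 2 and 10, 10 and 11, and 3 and 9 for shLB at 0, 8 and 24 h. With higher scoring peaks they were 562 and 819, 794 and 992, 230 and 226, 460 and 465, and 358 and 365, as fewer genes were counted. With only the groups compared in the fit, 197 rose and 216 fell for shLB in untreated cells and 210 and 157 at 24 h. Without a filter on low values 279 fell in untreated cells and 414 at 24 h.

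Leaving out each library in turn gave 125 to 565 genes that rose and 105 to 474 that fell for shLB in untreated cells, 492 to 552 and 449 to 475 at 8 h, and 282 to 882 and 203 to 1040 at 24 h. In untreated cells the counts dropped by more than 1.5 times without either shLB library (125 and 106 without replicate 1, 145 and 105 without replicate 2). At 8 h they did so with each of the 4 libraries left out in turn. At 24 h they did so without shCT replicate 1 (282 and 203) or 2 (302 and 252), and without shLB replicate 1 the number that fell rose to 1040. The lone library was then assumed to vary like the other groups. In the parental cells the ranges were 799 to 953 that rose and 1161 to 1499 that fell at 8 h, and 1200 to 1347 and 1560 to 1688 at 24 h.

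Between shCT and shLB libraries of the same replicate number, the correlations of deviations were −0.14 without TGF-β, −0.11 at 8 h and 0.37 at 24 h over 11450 genes. With 2 libraries per group, these values cannot settle whether the numbers pair the libraries. With a replicate block 447 rose and 415 fell in untreated cells, 865 and 825 at 8 h, and 685 and 600 at 24 h. With the crossed pairing, added after seeing the data, 423 and 393 did in untreated cells and 840 and 784 at 8 h. No paired analysis was possible for the parental libraries because their columns carry no replicate number.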
